A study of Mus musculus with 8 samples.

Results

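Acetylation of histone H3 at lysine 27 (H3K27ac) was profiled by ChIP-seq, the sequencing of immunoprecipitated chromatin, in 266-6 cells, an established mouse pancreatic acinar line, and the comparison described here is that of Arid1a knockdown with control siRNA when both received epidermal growth factor (EGF). It rests on 4 of the 8 libraries of the series. In 2 of them the cells carried siRNA against Arid1a and were given EGF at 40 ng/ml for 8 h (the knockdown with EGF), and in 2 the cells carried a non-targeting siRNA and were given the same EGF (the control siRNA with EGF). All cells of both groups had been transfected at 25 nM for 48 h and starved of serum overnight. The other 4 libraries, 2 with each siRNA, received a vehicle of 0.1% BSA in place of EGF and served for comparison. The labels call the libraries duplicates of a condition and do not say whether they came from separate cultures, so every p-value measures only the spread between these libraries, which may be technical. The labels state that the knockdown was transient and used siRNAs sold against ARID1A, without saying that they match the mouse gene, and how far the knockdown lowered Arid1a was not analysed here.

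H3K27ac marks active enhancers and promoters, and is written mainly by the acetyltransferases p300 and CBP. ARID1A is the DNA-binding subunit of the canonical BAF form of the SWI/SNF chromatin remodeller, which moves and evicts nucleosomes and is found largely at enhancers. EGF activates its receptor and the RAS and ERK pathway, and in pancreatic acinar cells ligands of that receptor drive a change toward duct-like cells. The non-targeting siRNA NT5 is shown because it defines the group that the knockdown is set against. Its sequence, as the labels give it, is 19 nt long, and no part is in capitals because none is singled out.
NT5: ugguuuacaugucgacuaa

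The deposited data were 1 list of H3K27ac peaks per library, in coordinates of build mm9. Peaks of the 4 EGF-treated libraries that overlapped by at least 1 bp were joined to 26840 regions covering 45.7 Mb, against 33920 regions when the lists of all 8 libraries were joined. Genes, promoters and cell type markers at these regions were not analysed here, since no annotation of build mm9 was used. The control siRNA libraries with EGF had 22361 and 23080 peaks and the knockdown libraries with EGF had 22030 and 23256, ranges that overlapped (exact two-sided permutation p = 1, n = 2 per group). The covered length was 33.9 and 35.5 Mb with control siRNA and 34.2 and 36.8 Mb with knockdown (exact permutation p = 0.667, n = 2 per group). In the vehicle libraries the first control replicate stood apart, with 22167 peaks and 34.3 Mb against 26844 to 28281 peaks and 46.3 to 48.7 Mb in the other 3. Read depth is unknown for every library, and its part in the lengths of the lists was not tested. With 2 libraries against 2, no exact permutation test of a single value can give a two-sided p under 0.333.

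The knockdown left most H3K27ac regions in place under EGF. All 4 libraries held 18331 of the 26840 regions (68.3%), and 86.9% of the merged base pairs lay in them. A peak was present in both knockdown libraries and in neither control siRNA library in 746 regions, which is 2.78% of all, and these are called gained. The reverse held in 808 regions, 3.01%, which are called lost. The remaining regions with a peak in 2 libraries, 878 in all, had 1 library of each group, with 134 to 337 regions for each of the 4 such pairs. A single library alone held 3819 regions (14.2%). Leaving out 1 library drops a requirement of the rule, so both counts could only rise. With single libraries left out the gained regions numbered 1194 to 2078 and the lost regions 1163 to 1900. Without the first knockdown library with EGF there were 2078 gained and 1163 lost. When peaks had to reach a −log10 q of at least 5, the counts were 769 gained and 142 lost. Above that limit the knockdown libraries with EGF had 10057 and 9872 peaks and the control siRNA libraries 7925 and 9500.

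Gained and lost regions were short and weak. Their median width was 691.5 bp for gained and 857.5 bp for lost regions, against 1723 bp for regions held by all 4 libraries. Short width was not particular to them. The 878 regions with 1 library of each group made 3.27% of the regions and 1.36% of the merged length, and their fold percentiles were not taken. Fold enrichment, the peak height over the caller's background as the authors deposited it, was ranked within each list as a percentile. The lower of the 2 percentiles of a gained region had a median of 9.13, and that of a lost region 10.7, whereas the lowest of 4 percentiles in the regions held by all 4 libraries had a median of 48.9. A percentile above 50 in both holding libraries was seen in 3 gained and 5 lost regions. The highest gained region lay on chromosome 13 from 21622708 to 21623133, with folds of 5.34 and 6.00 in the knockdown libraries, at the 57.1 and 71.5 percentiles. Vehicle cells held it in all 4 libraries at 338 to 477 bp, so of the 8 libraries both without a peak there were those with control siRNA and EGF. The other 2 such gained regions lay on chromosome 10 from 81014143 to 81014451 and on chromosome 9 from 107790478 to 107790856, and neither was absent from the vehicle libraries.

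Among the lost regions at high percentiles, 3 of 5 lay on chromosome 13. One of these, from 49273954 to 49274885, had peaks of 628 and 932 bp with control siRNA and EGF, at folds of 4.78 and 4.91, and no peak in any of the other 6 libraries. It appeared with EGF under control siRNA alone. The second, from 60369125 to 60369591, covered 356 and 467 bp under control siRNA with EGF and 283 to 446 bp in the vehicle libraries, and was absent with knockdown and EGF. The last of them, from 100307533 to 100308597, covered 937 and 1043 bp under control siRNA with EGF, and 638 and 277 bp in 1 control and 1 knockdown vehicle library. The other 2 regions lay on chromosome 16 from 15958916 to 15959162 and on chromosome 11 from 31117847 to 31118763, each with a peak in 2 vehicle libraries, 1 of each siRNA.

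The gained and lost regions differed in where they lay. The median gap to the nearest region held by all 4 libraries was 29.5 kb for lost and 11.4 kb for gained regions, with 15.5 kb over all regions. Within 10 kb of such a region lay 25.0% of the lost, 46.1% of the gained and 39.3% of all regions. The chromosomes also took unequal shares. Chromosome 11 held 11.1% of the gained and 6.56% of the lost regions against 8.14% of all, and chromosome 7 held 10.2%, 4.83% and 6.48% in the same order. Chromosomes 13 and 12 leaned the other way, with 6.44% and 5.32% of the lost, 4.02% and 2.14% of the gained, and 3.68% and 3.76% of all regions. These chromosomes were picked after their shares were seen, and the shares are descriptions without a test.

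The vehicle libraries, which had no part in choosing the gained and lost regions, differed at them. At the gained regions, 83.1% and 87.3% had a peak in the knockdown vehicle libraries against 38.7% and 70.1% in the control siRNA vehicle libraries. Over all 26840 regions the same shares were 86.1% and 87.9% against 75.8% and 88.0%. The lost regions had a peak in 53.6% and 55.4% with knockdown and vehicle, and in 47.3% and 76.5% with control siRNA and vehicle. Against its own share over all regions, the first control library fell by 37.0 percentage points at the gained regions and the second fell by 17.9, while the first knockdown library fell by 3.03 and the second fell by 0.626. At the lost regions the first control library fell by 28.5 points and the second fell by 11.5, while the first knockdown library fell by 32.5 and the second fell by 32.4. The 2 control libraries differed from each other by more than the 2 knockdown libraries did, and at lost regions the knockdown shares lay between those of the controls.

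**Figure D1:**
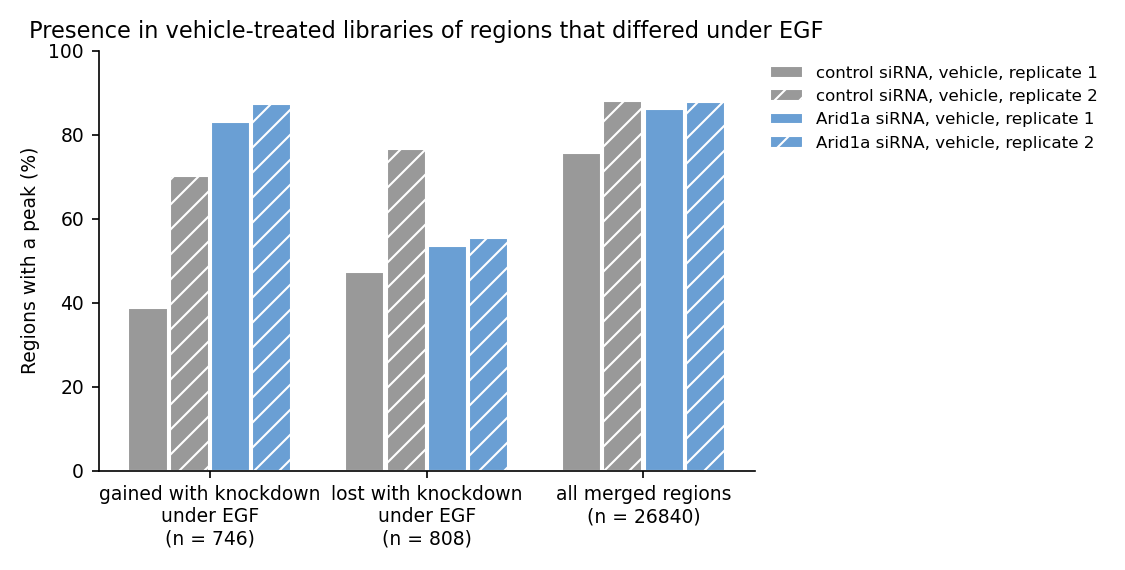
Share of regions with a peak (vertical axis, %) in each of the 4 vehicle libraries, for regions gained or lost with knockdown under EGF and for all merged regions; each bar is 1 library. Gained regions show 83.1% and 87.3% in the knockdown libraries against 38.7% and 70.1% in the control libraries.

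Sorted by pattern, 250 gained regions (33.5%) had a peak in all 4 vehicle libraries, so they were missing from both libraries with control siRNA and EGF and from no other. A further 98 (13.1%) were held by both knockdown and neither control vehicle library, which puts them in all 4 knockdown and none of the 4 control libraries. The reverse pattern was seen in 1 gained region, and 46 (6.17%) had no vehicle peak. Of the lost regions, 252 (31.2%) had a peak in all 4 vehicle libraries and were missing with knockdown and EGF alone. No vehicle library held 150 (18.6%), which were therefore peaks of the control siRNA with EGF only. In 44 lost regions (5.45%) both control and neither knockdown vehicle library had a peak, against 12 (1.49%) with the reverse. Over all merged regions, 72.7% had a peak in all 4 vehicle libraries and 6.37% in none, so the share of gained regions without a vehicle peak was near that of all regions. Both knockdown and neither control vehicle library had a peak in 2.10% of all regions, and 0.548% had the reverse.

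Covered length was the summed whole width of the peaks that touch a region. A vehicle peak can thus reach past the region, whereas peaks of the EGF-treated libraries lie inside it. This length gave a graded measure that could be tested. It was compared on log2(bp + 200) with limma over the 23021 regions that at least 2 of the EGF-treated libraries held, with the spread taken from all 8 libraries, and a difference passed at a Benjamini-Hochberg adjusted p under 0.05. With knockdown under EGF, 120 regions (0.521%) were higher and 154 (0.669%) lower, or 1.19% of those tested. The median difference over all tested regions was 0.02. Gained regions made up 83 of the 120, and lost regions 127 of the 154. Such regions entered the test only through the group that held them. Their p-values restate that pattern of presence and are no further support for it. Calls came to 0 in limma when only the 4 EGF-treated libraries gave the spread, with 3773 regions at an unadjusted p under 0.05 against 2969 with all 8 libraries. They also fell to 0 without either knockdown vehicle library or the first knockdown library with EGF (2791, 2779 and 2487 at an unadjusted p under 0.05), and to 2 without the second (2660), and likewise to 0 with a pseudocount of 1000 bp in place of 200 (2776). Without the first or the second control vehicle library there were 553 and 494 calls, and without the first or the second control siRNA library with EGF 258 and 311, so the number of calls depended on which libraries entered the fit. With peaks limited to a −log10 q of at least 5, the split was 443 higher and 78 lower, or 85.0% higher against 43.8% here.

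In the largest decreases of covered length, whole peaks were missing with knockdown. On chromosome 10 from 34229293 to 34232730, peaks of 2101 and 3371 bp under control siRNA with EGF had no counterpart with knockdown, a log2 difference of −3.84 ± 0.48 (SE; limma adjusted p = 0.0359). In vehicle cells only the second knockdown library had a peak there, of 251 bp. A region on chromosome 7 from 128757287 to 128759086 covered 1743 and 1566 bp with control siRNA and EGF and 0 bp in the 6 other libraries (−3.21 ± 0.30, limma adjusted p = 0.0239). Both regions had little or no peak outside the control siRNA with EGF. A group without any peak has no spread between its libraries. On chromosome 7 the error therefore rests on the control siRNA libraries with EGF and on the spread that limma borrows from other regions. Its small size there is not a measure of how well replicates agree in the other groups.

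Most of the 10 largest decreases had another pattern. On chromosome 9 from 70806619 to 70808755, the control siRNA libraries with EGF covered 1970 and 1772 bp, the 4 vehicle libraries 1062 to 1714 bp, and the knockdown libraries with EGF 0 bp (−3.37 ± 0.20, limma adjusted p = 0.0239). A region on chromosome 6 from 14307699 to 14309454 covered 1756 and 1603 bp with control siRNA and EGF, 1559 to 2165 bp with vehicle, and 0 bp with knockdown and EGF (−3.23 ± 0.23, limma adjusted p = 0.0239). On chromosome 16 from 74027868 to 74030589 the lengths were 2075 and 1893 bp, then 1425 to 3084 bp with vehicle and 0 bp with knockdown and EGF (−3.45 ± 0.31, limma adjusted p = 0.0239). Of the 10 regions, 8 were held by all 4 vehicle libraries, so that knockdown with EGF was the group without a full peak there. The test favours that pattern, since vehicle replicates that disagree widen its spread. Among all 154 lower calls 66.2% were held by all 4 vehicle libraries, against 31.2% of the lost regions. The 2 sets are unlike, since the calls include 22 regions that all 4 EGF-treated libraries held and the lost regions include none. Of all regions held by these 4 libraries, 92.6% were in all 4 vehicle libraries. The folds of the 10 regions under control siRNA with EGF were moderate: the lower percentile of the holding libraries lay between 11.1 and 45.7.

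The 10 regions with the largest increases were 1201 to 1775 bp wide, against 1716 to 3438 bp for the 10 largest decreases. On chromosome 2 from 180077165 to 180078626 the control siRNA libraries had no peak with EGF or with vehicle, and the knockdown libraries covered 1276 and 1292 bp with EGF and 1283 and 1397 bp with vehicle. This region rose by 2.89 ± 0.26 on the log2 scale under EGF (limma adjusted p = 0.0239) and followed the siRNA in all 8 libraries. The regions on chromosome 16 from 33153122 to 33154527 and on chromosome 7 from 4497677 to 4499153 had the same presence pattern. The first covered 1245 and 1406 bp with knockdown and EGF and 865 and 454 bp with knockdown and vehicle (2.93 ± 0.34, limma adjusted p = 0.0331). The 120 higher calls include 36 regions that all 4 EGF-treated libraries held, and the gained regions include none. Of the 120 higher calls 81.7% were held by all 4 vehicle libraries, against 33.5% of the gained regions, a pattern that the test favours. So were the other 7 of the 10 largest increases. One of them, on chromosome 7 from 20283579 to 20284998, covered 1405 and 1408 bp with knockdown and EGF, 825 to 1615 bp with vehicle and 0 bp with control siRNA and EGF (3.01 ± 0.30, limma adjusted p = 0.0265).

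Few calls lay close together, though no such share was taken for other regions. Chromosome 15 held 10.0% of the higher and 9.74% of the lower calls against 4.91% of all regions. Chromosome 6 held 0.833% of the higher and 6.49% of the lower calls against 5.92%. Both were picked after their shares were seen, and unevenness was not tested. Within 100 kb of another call in the same direction lay 4 of the 120 higher and 10 of the 154 lower regions, and no run held more than 2.

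Inside the 18331 regions that all 4 libraries held, the peaks of the knockdown were wider in some places and narrower in others. Of these regions 36 passed as wider and 22 as narrower with limma, part of the 120 and 154 above. At each of the 10 largest differences in either direction, all 4 vehicle libraries also had a peak, as they did in 92.6% of all regions that the 4 EGF-treated libraries held. The vehicle libraries also entered the spread of this test. The region on chromosome 14 from 25317903 to 25320383 covered 211 and 221 bp with control siRNA and EGF and 1424 and 2481 bp with knockdown and EGF, a short peak against a full one (2.33 ± 0.33, limma adjusted p = 0.0455). Vehicle cells covered 1264 and 2311 bp with control siRNA and 2542 and 2876 bp with knockdown. On chromosome 2 from 26337172 to 26339343, 315 and 253 bp stood against 1771 and 2172 bp (2.16 ± 0.20, limma adjusted p = 0.0239), with 1944 to 4077 bp in the vehicle libraries. On chromosome 15 from 57907393 to 57908727, 303 and 243 bp stood against 1335 and 1328 bp (1.70 ± 0.15, limma adjusted p = 0.0239), and the vehicle libraries covered 1664 to 1825 bp irrespective of the siRNA. In these 3 regions the narrow libraries were the 2 with control siRNA and EGF. Their lengths of 211 to 315 bp were near the narrowest width of a peak in the lists, 200 bp. These differences are therefore close to presence against absence. On chromosome 15 the region itself was 1335 bp wide, so each vehicle length there included bases outside it. Vehicle and EGF-treated lengths are therefore not set side by side on equal terms.

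Narrowing took the reverse form. The region on chromosome 1 from 131794431 to 131798326 covered 3612 and 3577 bp with control siRNA and EGF, 3244 to 4466 bp with vehicle, and 776 and 653 bp with knockdown and EGF (−2.06 ± 0.13, limma adjusted p = 0.0239). That on chromosome 4 from 13362897 to 13364728 covered 1363 and 1735 bp against 248 and 208 bp, with 1225 to 1885 bp in the vehicle libraries (−2.02 ± 0.24, limma adjusted p = 0.0338). On chromosome 7 from 103688790 to 103690608 the lengths were 1786 and 1767 bp against 407 and 259 bp (−1.90 ± 0.21, limma adjusted p = 0.0300). Here the knockdown with EGF was the group apart from the other 3. Its lengths on chromosome 4 were also near the narrowest peak width of 200 bp. A different order was seen on chromosome 9 from 60815446 to 60819281. There the control siRNA with EGF, at 3745 and 3366 bp, was the wide group, and both knockdown libraries with EGF (1358 and 1107 bp) were as narrow as the vehicle libraries (1175 to 1364 bp; −1.39 ± 0.14, limma adjusted p = 0.0265).

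**Figure D2:**
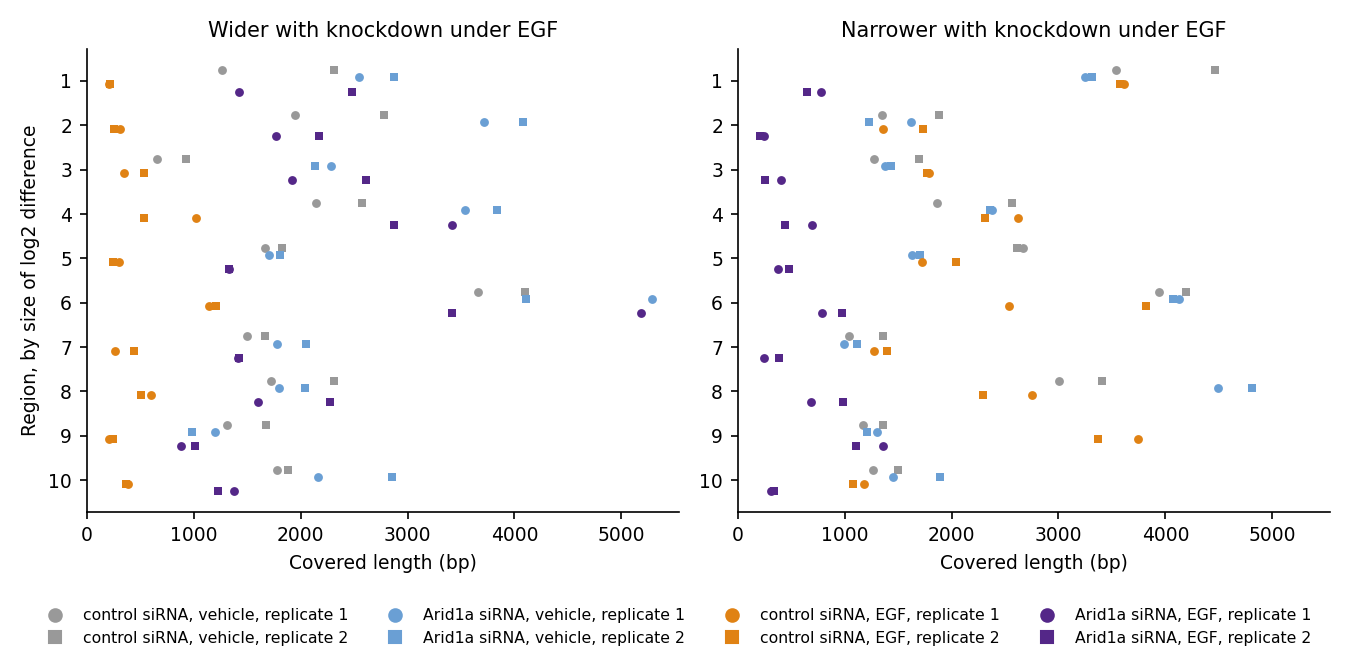
Covered length in bp (horizontal axis) in each of the 8 libraries, for the 10 regions with the largest increase (left) and the 10 with the largest decrease (right) with knockdown under EGF among those held by all 4 EGF-treated libraries and passing limma; each point is 1 library. At most regions on the left the control siRNA libraries with EGF are lowest, and at most on the right the knockdown libraries with EGF are. Vehicle peaks are counted at their whole width, also outside the region.

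A description by size rather than by test gave larger numbers. Both knockdown libraries were at least 1.5 times as wide as both control siRNA libraries in 410 of the 18331 regions (2.24%), and at least 1.5 times narrower in 336 (1.83%). Differences of this size were more frequent in narrow regions, with 210 wider and 152 narrower in the 4585 narrowest regions by mean covered length against 55 and 34 in the 4583 widest. The replicates also spread more there: the median absolute log2 difference between the 2 control siRNA libraries was 0.34 in the narrowest and 0.11 in the widest. Between the 2 knockdown libraries it was 0.32 and 0.12. In the 4 pairs of single libraries across the groups it was 0.38 to 0.41 in the narrowest and 0.15 to 0.16 in the widest, above both replicate pairs. Joined peaks, where both control siRNA libraries had several peaks and both knockdown libraries a single one, were seen in 98 regions (0.535%), and the reverse, split peaks, in 41 (0.224%).

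**Figure D3:**
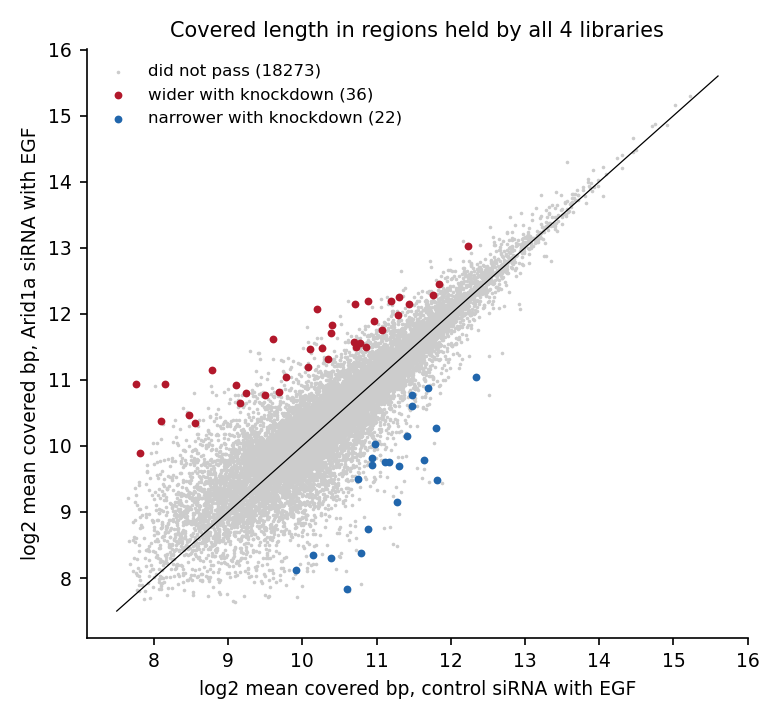
Mean covered length (log2 bp) of each of the 18331 regions held by all 4 EGF-treated libraries, with control siRNA (horizontal) against knockdown (vertical). Most points lie along the line of equality; the 36 red points passed limma as wider and the 22 blue points as narrower with knockdown.

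The widest H3K27ac domains were counted separately. Peaks of at least 10 kb, wide tracts of the kind found at clustered enhancers and highly active genes, numbered 69 and 70 with control siRNA and EGF and 90 and 94 with knockdown and EGF. The groups did not overlap and differed by 22.5 on average, but the exact two-sided permutation test of 2 against 2 gave p = 0.333, the smallest it allows. The length in such peaks averaged 0.946 ± 0.0230 Mb and 1.28 ± 0.0656 Mb (SD, n = 2 each). In the vehicle libraries there were 72 and 150 such peaks with control siRNA and 161 and 208 with knockdown. Again the groups did not overlap, although the 2 control replicates differed from each other by more than the EGF groups did.

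By region, 117 held such a peak in at least 1 EGF-treated library. Of these, 46 did in all 4, 13 in both knockdown and neither control siRNA library, and 3 in the reverse case. In some of the 13 the control siRNA libraries also covered over 10 kb, in several peaks. On chromosome 10 from 59359123 to 59375611 they covered 14720 and 15559 bp against 15868 and 16458 bp with knockdown (0.09 ± 0.14, limma adjusted p = 0.902). The clearest of the 13, by the limma p, lay on chromosome 11 from 68021763 to 68032282 and covered 7589 and 7319 bp with control siRNA against 10514 and 10350 bp with knockdown (0.47 ± 0.08, limma adjusted p = 0.0638). Its length in the 4 vehicle libraries, at whole peak width, was 10189 to 11074 bp, so the control siRNA with EGF was again the shorter group. On chromosome 4 from 153940202 to 153952112 the lengths were 6376 and 7860 bp against 11793 and 10926 bp, a larger difference with a larger error (0.67 ± 0.19, limma adjusted p = 0.198). None of the 13 passed limma, whose smallest adjusted p was 0.0638 among them. Of the 3 reverse regions, that on chromosome 13 from 83661643 to 83672148 had the largest difference, with 10472 and 10338 bp against 6296 and 8032 bp (−0.54 ± 0.14, limma adjusted p = 0.159). Its vehicle libraries covered 10244 to 11453 bp. The others lay on chromosome 2 from 173897916 to 173915603 and on chromosome 1 from 138806416 to 138819346.

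Peak height was compared through the rank of fold among the 18331 regions that all 4 libraries held, turned into normal scores and fitted with limma on the 4 libraries. The rank of 4 regions rose with knockdown (0.0218%) and that of 11 fell (0.06%), together 0.0818%, with 3285 at an unadjusted p under 0.05. Regions changed rank by a median of 6.55 percentile points between the 2 control siRNA libraries and 5.55 between the 2 knockdown libraries, against 7.96 to 8.32 in the 4 pairs across the groups. No region passed both this test and that of covered length, which called 0.196% of the shared regions as wider and 0.120% as narrower. With calls this rare in both tests, the lack of overlap says little. On plain percentiles in place of normal scores, no region passed limma (smallest adjusted p = 0.149, with 3198 at an unadjusted p under 0.05). With 1 library left out, 252 to 365 regions passed, the 15 among them. One group was then a single library, assumed to vary like the other pair, whose spread alone set the test.

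The 4 regions that rose were short. On chromosome 12 from 80272613 to 80273752 the folds were 4.52 and 4.49 with control siRNA and 7.97 and 8.22 with knockdown, the 37.4 and 29.9 percentiles against the 85.4 and 89.3 (1.57 ± 0.18 normal scores, limma adjusted p = 0.0121). Its covered length hardly differed, at 1000 and 1052 bp against 1135 and 1089 bp. On chromosome 2 from 32612767 to 32613271 the percentiles were 25.5 and 48.9 against 86.8 and 86.1 (1.44 ± 0.21, limma adjusted p = 0.0437). The others lay on chromosome 19 from 6235513 to 6236554, at 10.9 and 25.2 against 73.5 and 73.2, and on chromosome 17 from 17430766 to 17431688, at 13.8 and 10.9 against 74.8 and 59.7. In each of the 4, both knockdown libraries were above both control siRNA libraries, which their choice by this test favours.

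Among regions that fell in rank, the smallest p was on chromosome 2 from 56975788 to 56976641. Its folds of 9.26 and 10.6 with control siRNA put it at the 98.5 and 98.9 percentiles, and its folds of 6.91 and 6.60 with knockdown at the 74.0 and 72.8 (−1.60 ± 0.16, limma adjusted p = 0.00722). In vehicle cells, among the 16972 regions that all 8 libraries held, it ranked lower still, at 34.2 and 33.3 with control siRNA and 3.71 and 15.5 with knockdown. The region was therefore high with EGF and low with vehicle under either siRNA, and lower with knockdown in both treatments. On chromosome 11 from 109476377 to 109479449 the percentiles fell from 89.6 and 91.9 to 32.7 and 42.3 (−1.65 ± 0.18, limma adjusted p = 0.00797). On chromosome 10 from 67542592 to 67543473 they fell from 60.0 and 64.2 to 3.17 and 7.56 (−1.95 ± 0.29, limma adjusted p = 0.0437), the largest change of the 15 in normal scores. That region ranked at 8.64 to 27.8 with control siRNA and vehicle and at 7.19 to 15.5 with knockdown and vehicle.

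**Figure D4:**
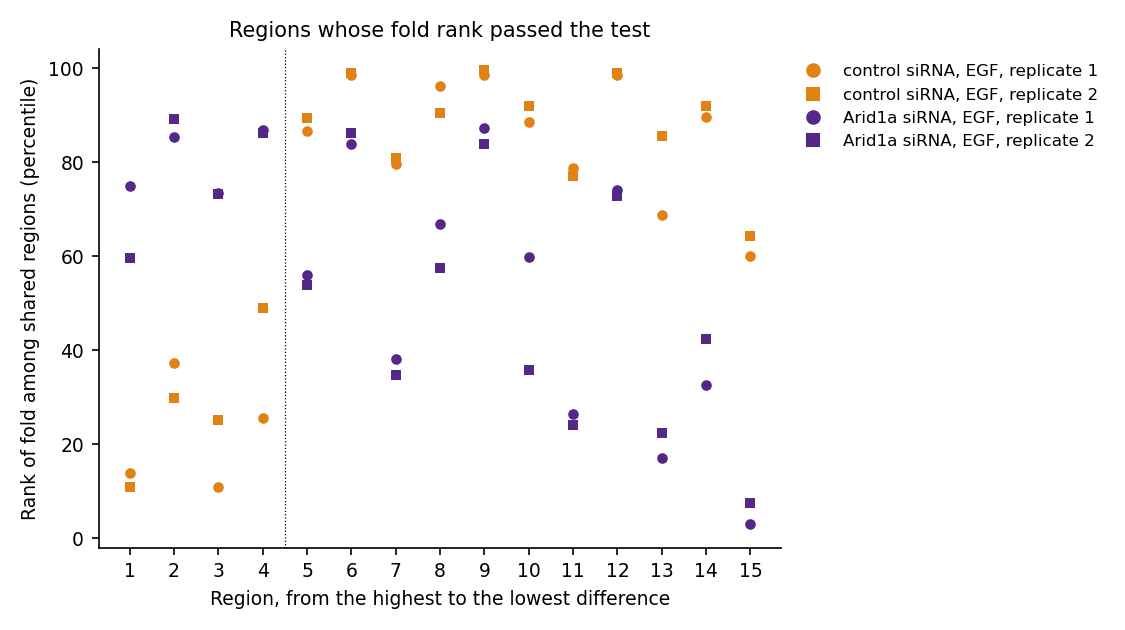
Percentile of fold among the 18331 shared regions (vertical axis) in each EGF-treated library, for the 15 regions whose rank passed limma, ordered by the size and sign of the difference; the dotted line divides the 4 that rose from the 11 that fell with knockdown. Each point is 1 library, and in each region the 2 groups do not overlap, which their choice by this test favours.

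The vehicle libraries, which were not used in the fit of 4 libraries, leaned the same way in rank. Of the named regions, 12 could be ranked in all 8 libraries, and the knockdown difference with vehicle had the same sign as with EGF in all 12. In a fit of all 8 libraries, 73 regions were higher and 79 lower with knockdown under EGF. Of these 152, 143 (94.1%) had the same sign with vehicle, against 10971 of 16972 (64.6%) over all ranked regions. The vehicle libraries entered the spread of this fit, so its calls were not chosen independently of them. The 16972 also include regions without a clear difference under EGF, where the sign can fall either way, so the shares are not like for like. With each vehicle library left out in turn the shares were 91.4% to 93.4% and 61.8% to 64.3%. Of the 152, 19 also passed limma in the vehicle comparison. An example on chromosome 12, the region from 80272613 to 80273752 above, stood at 46.1 and 69.7 with control siRNA and 97.5 and 85.9 with knockdown in vehicle cells.

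The knockdown difference in covered length was also taken in vehicle cells, for the groups of regions set by the EGF-treated libraries. This difference with vehicle had a median of 0.90 at gained and −0.05 at lost regions on the log2 scale, against 0.17 over all tested regions. It was above 0 in 84.3% of gained, 29.5% of lost and 73.5% of all tested regions. It was 0 in 46 of the 746 gained, 150 of the 808 lost and 629 of the 23021 tested regions. Below 0 it lay in 71, 420 and 5468 in the same order. The share above 0 thus counts lost regions without any vehicle peak as not above 0. At the shared regions that were 1.5 times wider with knockdown under EGF the median was 0.47, and at those 1.5 times narrower it was 0.00. The first control vehicle library, which stood apart by its short list, weighed on these values: without it the share above 0 was 66.0% at gained, 14.9% at lost and 54.1% over all tested regions. Without the second control library it was 85.3%, 41.2% and 80.6%. Lost regions thus lay below the tested regions with either control library, and gained regions lay above them by 11.9 percentage points without the first and 4.68 without the second.

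**Figure D5:**
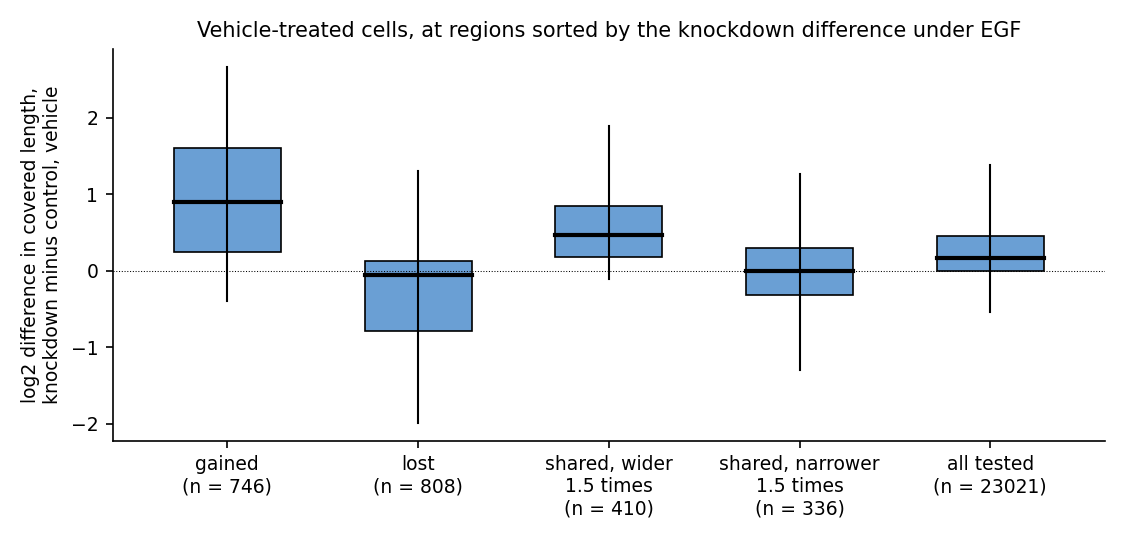
Knockdown minus control siRNA in vehicle-treated cells, as the log2 difference in covered length (vertical axis), for regions grouped by their difference under EGF and for all tested regions; lines mark medians, boxes the middle 50% of regions and whiskers the 5 and 95 percentiles. Gained regions (median 0.90) and wider shared regions (0.47) lie above all tested regions (0.17), and lost regions (−0.05) below.

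Whether the knockdown difference depended on EGF was tested directly as the difference between the knockdown difference with EGF and that with vehicle. No region of 23021 passed with limma (0% called; smallest adjusted p = 0.0502), and 1863 had an unadjusted p under 0.05. Of these 1433 had a more negative difference with EGF and 430 a more positive one. Without the second control vehicle library 532 regions passed, and without the first control siRNA library with EGF 103 did. The median over all tested regions was −0.15, beside the median of 0.17 for the knockdown difference with vehicle. Among the regions named above the smallest adjusted p was 0.0744 in limma, as for the narrowed region on chromosome 1 from 131794431 to 131798326, with a difference of −1.79. By rank of fold in all 8 libraries, 3 regions passed, chosen here after their values were seen. On chromosome 7 from 16990026 to 16991874 the percentiles with vehicle were 15.1 and 7.49 with control siRNA and 99.7 and 99.7 with knockdown, and those with EGF 2.62 and 6.11 against 29.7 and 20.8 (limma adjusted p = 0.00482). A neighbouring region on chromosome 7 from 16792448 to 16794979 and a region on chromosome 12 from 88240417 to 88241536 likewise ranked high only with knockdown and vehicle, at 88.7 to 95.6 and 95.0 to 96.4. In all 3 the EGF-treated libraries ranked at or below 40.7 with either siRNA.

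The 5 strongest H3K27ac regions were chosen by their mean percentile of fold over the 4 libraries, which therefore says nothing on the knockdown. Their log2 differences in covered length lay between −0.20 and 0.09 (smallest limma adjusted p = 0.698).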

How the data were processed

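The data were peak lists of H3K27ac chromatin immunoprecipitation libraries of 266-6 cells, 2 in each of 4 groups, and 4 libraries made the comparison described. Libraries were assigned to groups by their titles in the labels. Each library has its own deposited list, so no samples were pooled for calling. The submitters' processing notes name build mm9 and the tools MACS2 2.1.1.20160309.0, Bowtie2 2.3.4.2, deepTools 3.0.2 and SAMtools, without roles or order. The calling settings are not given in the sources used. Deposited with every peak are its position, a score, the authors' fold enrichment as a ratio, and its −log10 q and −log10 p. Read depth is unknown, and lists of deeper libraries can be longer and their peaks wider.

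EGF-treated peaks sharing 1 bp or more were merged. Covered length, as log2(bp + 200), was fitted with limma 3.58.1 in R 4.3.3, with a trended empirical Bayes prior, with 4 group means over all 8 libraries, on regions held by at least 2 EGF-treated libraries, with Benjamini-Hochberg adjustment and a threshold of 0.05. A vehicle peak was counted at its whole width, since cutting it at edges that the other libraries had set made the vehicle libraries alike. Fold ranks were fitted as normal scores over the 4 libraries. The 2 EGF groups shared no library with the 2 vehicle groups. Single values were compared by exact two-sided permutation. Tables used Python 3.11.15, pandas 2.3.3 and SciPy 1.17.1, and the fits were tested on simulated data. Every simulated library of a region varied by the same spread. The simulation therefore did not cover groups without any peak, which have no spread, or vehicle replicates that disagree more than others. Regions were named from lists made by rule: the 10 gained and 10 lost regions of highest fold percentile, the 10 largest called differences in each direction by covered length, overall and in shared regions, and by fold rank, and the 5 strongest regions. Leading ones are given with values and the others by counts or ranges. Regions with a peak of at least 10 kb were named by their difference or p. Members and lists were chosen with earlier results of these data known. Replicate numbers did not pair libraries by the labels. The siRNA sequences against Arid1a and the gene lists were not used here.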

Additional observations from a re-analysis of the deposited data

How the results depend on the processing

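Limits come first. Depth is unknown, each group has 2 libraries, and whether a region has a peak depends on the caller's threshold. Which libraries set the spread decided whether covered length gave any call, and the cause was not tested.

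Gained regions numbered 1149 where peaks had to cover 50% of a region and 2434 in bins of 1000 bp. Lost regions numbered 2313 in such bins and 142 with a −log10 q of at least 5. With 1 library left out, gained regions ranged from 1194 to 2078 and lost from 1163 to 1900, where the looser rule could only raise the counts. The difference in the number of peaks (−77.5, knockdown minus control siRNA) was 1252 at a −log10 q of at least 5, and −690.5 to 535.5 with 1 library left out, with 282 without the second control siRNA library with EGF. For the median width (2 bp) the difference was −57 bp and −9.5 to 13.5 bp, and for covered length (0.825 Mb) it was −0.452 to 2.10 Mb with 1 library left out.

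Covered length gave, higher and lower, 443 and 78 regions at a −log10 q of at least 5, 275 and 309 with lists cut to equal length, 290 and 340 with a pseudocount of 50 bp, 40 and 62 without the filter on presence, 228 and 276 after quantile normalization, and 0 and 0 with a pseudocount of 1000 bp or with only the 4 EGF-treated libraries. Cutting vehicle peaks at region edges, chosen after seeing the data, gave 447 and 423, and regions merged from all 8 lists, chosen likewise, 120 and 159. Leaving out 1 library gave 0 to 278 higher and 0 to 275 lower: 278 and 275 without the first control vehicle library and 251 and 243 without the second, 0 and 0 without either knockdown vehicle library or the first knockdown library with EGF, 0 and 2 without the second, and 64 and 194 without the first control siRNA library with EGF. Of the 274 calls, 102 remained without the filter, 229 after quantile normalization, 269 with a pseudocount of 50 bp and 107 or 118 without either control siRNA library with EGF.

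In shared regions the wider calls were 68 with equal lists, 67 with a pseudocount of 50 bp, 18 without the filter, 75 after quantile normalization and 206 with cut vehicle peaks, and the narrower calls 8 at a −log10 q of at least 5, 42 with a pseudocount of 50 bp, 12 without the filter, 68 after quantile normalization and 125 with cut vehicle peaks. Both were 0 with a pseudocount of 1000 bp and with the 4 EGF-treated libraries alone. With 1 library left out they ranged from 0 to 91 and from 0 to 50. The difference between the knockdown differences with EGF and with vehicle gave 376 calls at a −log10 q of at least 5, 63 with equal lists, 7 with a pseudocount of 1000 bp, 69 with cut vehicle peaks, and 0 to 532 with 1 library left out, with 103 without the first control siRNA library with EGF.

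Rank of fold gave 0 higher and 0 lower on plain percentiles, 22 and 38 by −log10 q, 73 and 79 over all 8 libraries, and 63 to 185 and 152 to 220 with 1 library left out. In the fit with the replicate number as a block, covered length gave 0 higher and 0 lower (3094 regions at an unadjusted p under 0.05 in limma), shared regions 0 and 0, the difference of differences 0, and fold rank 135 and 208. The numbers did not pair the libraries: replicate deviations of the 6 pairs of groups correlated at −0.0135 to 0.0662. Among named regions under single alternatives, covered length stayed on its side of the threshold, with the same sign, in 332 cases, lost its call in 203 and gained one in 8, and fold rank stayed in 77 and lost its call in 11. The 332 include gained and lost regions that had no call in the main fit and stayed without one, so they are not all kept calls.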
